A study of Mus musculus with 39 samples.

Results

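Microglia, the resident macrophages of the brain, were compared between offspring labelled MIA and offspring labelled CON, in animals of both prenatal groups that had also been given PLX and then lipopolysaccharide (LPS). The comparison took every library titled MIA_PLX_LPS, 6 in number, against every library titled CON_PLX_LPS, also 6, which is 12 of the 39 libraries in the series. Of 13420 genes tested, 2 were called higher in MIA libraries, Sbsn and Ppl, which is 0.0149% of the genes tested. No gene was called lower by edgeR (0% of the genes tested), with 602 genes lower at an unadjusted p under 0.05. DESeq2 called 19 higher, Ppl among them, and 0 lower. Limma voom called 1 in each direction, Ppl higher and Rpn1 lower, and did not call Sbsn. Both called genes are best known from stratified epithelium, and both were highest in the pair of MIA libraries, replicates 2 and 3, that also held keratin, loricrin and skeletal muscle transcripts. Without those 2 libraries, left out after the data were seen, neither gene was called. The edgeR fit then called 13 other genes, led by Mxd1, a repressor in the MYC network. Among MIA libraries, Mxd1 was lowest in the 2 left out (23.9 and 35.1 CPM). The level after LPS of 787 LPS-induced genes, averaged per library, did not differ between the prenatal groups beyond the spread of the libraries.

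The RNA came from striatal microglia of male mice aged 8 to 10 weeks, sorted as live cells with CD11b, low CD45 and P2RY12 on their surface. All 12 libraries share the PLX arm and an intraperitoneal LPS dose of 4500 endotoxin units per gram, with cells taken 18 hours later. MIA stands for maternal immune activation in the series design. What was given to the mothers, the mouse strain, and the compound, dose and timing behind PLX are not stated in the labels. Nothing in the labels ties a replicate to an animal or speaks of pooling, so the p-values rest on library spread that may be technical. Each remaining group used here has the same tissue, sort and age. MIA_PLX_SAL (3 libraries) and CON_PLX_SAL (4) had saline in place of LPS, and MIA_CON_LPS (6) and CON_CON_LPS (4) had LPS in the arm without PLX.

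As background, LPS is a cell wall component of Gram-negative bacteria that CD14 hands to the receptor TLR4. Signalling from TLR4 frees NF-kB to induce cytokine and chemokine genes, and a second branch induces interferon and the genes that answer it. Microglia meanwhile lower the genes that mark their resting state, among them P2ry12 and Tmem119. Compounds with PLX code names are widely used to block CSF1R, the receptor that microglia need to survive, so that microglia are lost and then return once the compound is withdrawn.

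The 12 libraries held 1510006 to 5746240 estimated counts. MIA libraries were shallower in the mean, with 2578863 ± 625367 counts (SD, n = 6) against 4253880 ± 1214370 (SD, n = 6) in CON libraries (exact permutation test, two-sided, p = 0.01299, adjusted p = 0.05196 over 4 library measures, so not past 0.05 after adjustment). The number of genes detected, the share of mitochondrial ribosomal RNA and the share of the 50 most abundant genes did not pass either (adjusted p from 0.381 to 0.831). All 12 genes of a microglial identity list passed the filter on low counts. Their summed level ran from 10070 to 13280 CPM in MIA libraries and from 8669 to 17030 CPM in CON libraries, so the labelled cell type was present in each. CPM is the usual depth-scaled count, here on totals adjusted by the trimmed mean method (TMM), and a log2 fold change is MIA minus CON from the model fitted to 37 libraries.

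MIA replicates 2 and 3 stood apart from the other libraries in transcripts of epithelium and muscle. Of 20 markers of stratified epithelium, the layered lining of skin and mouth, 18 had counts in each of these 2 libraries, against 1 to 5 in each of the other 10. The summed level of the 20 was 291 CPM in MIA replicate 2 and 469 CPM in MIA replicate 3, and ran from 6.25 to 38.4 CPM elsewhere among the 12. Krt10, a keratin of the upper epidermis, stood at 88.5 and 110 CPM in these 2 libraries and at no more than 0.518 CPM in any other of the 12. Loricrin, Lor, the main protein of the cornified envelope, stood at 34.0 and 63.0 CPM and had no count in the other 10. Only Krt4 and Krt13, keratins of mucosal lining, were at 0 in all 12.

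Skeletal muscle transcripts showed the same division. All 16 muscle markers had counts in MIA replicates 2 and 3, with sums of 359 and 584 CPM, while the other 10 libraries had counts for 2 to 6 of the 16 and sums from 3.54 to 24.1 CPM. Atp2a1, the calcium pump of fast muscle, reached 55.9 and 93.9 CPM there and had no count in the other 10. Among the 25 fitted libraries outside this comparison, the sums went no higher than 59.1 CPM for epithelium and 20.1 CPM for muscle. Both lists were drawn up after the called genes had been seen, and most of their members failed the filter on low counts because only 2 libraries held them. A count of 0 allows up to 3 counts, which is 0.554 to 2.31 CPM in these libraries, and covers counting error only.

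**Figure D1:**
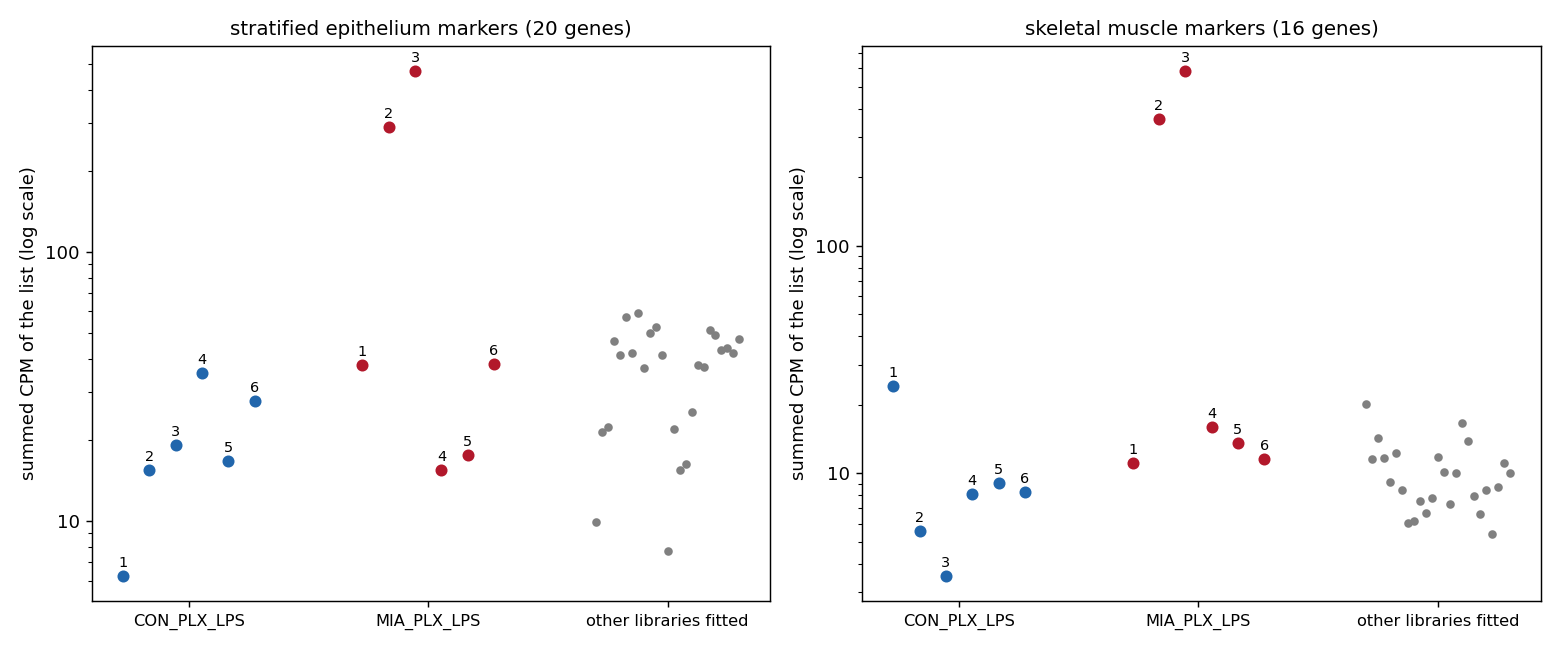
Summed CPM (log axis) of 20 stratified epithelium markers and 16 skeletal muscle markers in each library, with numbers giving the replicate and grey points the 25 fitted libraries that were not compared. MIA replicates 2 and 3 lie at 291 and 469 CPM for epithelium and at 359 and 584 CPM for muscle, above all other points.

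Sbsn encodes suprabasin, a secreted protein of the upper layers of the epidermis. Its level in CON replicates 1 to 6 was 1.90, 1.06, 2.36, 1.29, 1.34 and 1.72 CPM. In MIA replicates 1 to 6 it was 2.95, 29.5, 40.7, 7.58, 3.62 and 3.07 CPM. The groups did not overlap, and replicates 2 and 3 were far above the other 4 MIA libraries, which still exceeded each CON library. The log2 fold change was 3.19 ± 0.56 (SE), with an adjusted p of 0.0194 by edgeR's quasi-likelihood test with Benjamini-Hochberg adjustment. Without MIA replicates 2 and 3 the change was 1.44, with an adjusted p of 0.233. With saline, Sbsn ran from 2.90 to 4.39 CPM in CON_PLX_SAL and from 3.36 to 5 CPM in MIA_PLX_SAL. MIA replicates 1, 5 and 6 after LPS lay within that span of saline values, replicate 4 above it, and all CON libraries after LPS below it.

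Ppl encodes periplakin, which ties intermediate filaments to desmosomes and the cornified envelope. Its level in CON replicates 1 to 6 was 1.71, 1.59, 0.885, 1.66, 2.01 and 0 CPM, the last with an upper limit of 1.03 CPM. MIA replicates 1 to 6 gave 5.54, 8.68, 10.2, 3.10, 6.73 and 4.61 CPM. All MIA libraries lay above all CON libraries, and replicates 2 and 3 were again the highest, though less far from the rest than for Sbsn. The log2 fold change was 2.25 ± 0.41 (SE, adjusted p = 0.0194, edgeR), and without MIA replicates 2 and 3 it was 1.86 (adjusted p = 0.0929). The other libraries mattered too: both calls were lost without CON replicate 2 (adjusted p = 0.061 for each), CON replicate 3 (0.0538 for Sbsn and 0.102 for Ppl), CON replicate 5 (0.0515 for each) or MIA replicate 3 (0.0726 for each). The number of called genes was 0 without CON replicate 2, 3 or 5, 5 without MIA replicate 2 and 4 without MIA replicate 6.

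The upstream sequence of Sbsn is shown because it was the gene with the smallest p. RefSeq's promoter table on GRCm38.p6 held Sbsn and not Ppl. The 250 bases before its start, chr7:30751221-30751470 on the plus strand, are given with the match to the pattern TGANTCA, which reads alike on both strands, in capitals. The pattern is looser than the usual site of AP-1, the factor that Fos and Jun proteins form, which is TGACTCA or, on the other strand, TGAGTCA.
Sbsn: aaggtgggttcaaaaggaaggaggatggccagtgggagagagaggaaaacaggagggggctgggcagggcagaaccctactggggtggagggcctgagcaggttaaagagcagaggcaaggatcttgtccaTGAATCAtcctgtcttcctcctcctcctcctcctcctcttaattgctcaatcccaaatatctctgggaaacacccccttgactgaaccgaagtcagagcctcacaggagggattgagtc
The looser pattern occurred 1 time in this window, and 6.75% of 32851 upstream windows of the same length held it. The usual AP-1 site occurred 0 times here and in 4.46% of the windows, which says only that these letters are not in this window, and no binding was measured.

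Beyond these 2 genes, 591 genes had an unadjusted p under 0.05 in the higher direction (4.4% of those tested) and 602 in the lower direction (4.49%). The next genes by p are given as values, since none passed the adjusted threshold by edgeR. Higher in the MIA mean were Tpm1, a tropomyosin of actin filaments (log2 fold change 1.04 ± 0.21 SE, adjusted p = 0.098), and Mxd1 (1.69 ± 0.36 SE, adjusted p = 0.098). They were followed by Pmp22, a membrane protein named for its place in peripheral myelin (1.02 ± 0.23 SE), Il17ra, a receptor subunit for interleukin 17 (0.71 ± 0.17 SE), and Btg1, an inhibitor of proliferation (0.97 ± 0.24 SE). Mfng, which adds sugars to Notch receptors, came next (0.70 ± 0.18 SE). The adjusted p of these 4 ran from 0.168 to 0.280. DESeq2 called Tpm1 and Mxd1 (adjusted p = 0.006688 for each), Pmp22 (0.02124), Il17ra (0.03682) and Btg1 (0.04978), and did not call Mfng (0.1169), while limma voom called none of the 6.

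The libraries behind these values formed different patterns. Tpm1 was highest in MIA replicates 2 and 3, at 40.6 and 30.5 CPM, against 9.01 to 15.5 CPM in CON libraries. Mxd1 was highest in MIA replicates 1, 5 and 6, at 137, 272 and 160 CPM, while MIA replicate 3 (35.1 CPM) lay within the CON range of 24.4 to 45.8 CPM and MIA replicate 2 (23.9 CPM) just below it. Il17ra and Mfng did not overlap between the groups. Mfng was the most even, from 22.3 to 26.6 CPM in MIA libraries and from 9.29 to 18.8 CPM in CON libraries. Il17ra ran from 258 to 485 CPM and from 133 to 255 CPM. In all, 15 genes lay higher without overlap (0.112% of those tested) and 17 lower (0.127%).

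Hspb1, Platr1 and Tnni2 were chosen after their values were seen because they shared the adjusted p of 0.098 by edgeR. DESeq2 called all 3. Hspb1, a small heat shock protein, had a log2 fold change of 3.21 ± 0.68 (SE), Platr1, a noncoding RNA, 3.09 ± 0.66 (SE), and Tnni2, troponin I of fast muscle, 2.16 ± 0.47 (SE). Tnni2 was highest in MIA replicates 2 and 3, at 10.1 and 14.8 CPM. Platr1 stayed low in every library, from 1.48 to 4.66 CPM in MIA libraries and from 0 to 1.03 CPM in CON libraries.

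The 8 genes lower in the MIA mean with the smallest p did not pass the adjusted threshold by edgeR or DESeq2. Rpn1 was the 1 gene that limma voom called lower (adjusted p = 0.04241). Rpn1, a subunit of the complex that adds glycans to new proteins in the endoplasmic reticulum, ran from 48.4 to 84.4 CPM (median 70.9) in MIA libraries and from 72.2 to 169 CPM (median 133) in CON libraries, with a log2 fold change of -0.84 ± 0.21 (SE, adjusted p = 0.243, edgeR). Eif3d, a translation initiation factor subunit, stood at -0.56 ± 0.14 (SE). The others were Mdn1, which acts in ribosome assembly (-0.81), Hars, the histidine tRNA ligase (-0.76), Sart1 and Eftud2 of the spliceosome (-0.56 and -0.49), Nomo1 of the endoplasmic reticulum (-0.66) and Ogfod1, a hydroxylase of a ribosomal protein (-0.58). Their adjusted p ran from 0.397 to 0.432. Of these 8, only Eftud2 did not overlap, at 28.8 to 36.8 CPM in MIA libraries and 38.5 to 61.0 CPM in CON libraries.

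**Figure D2:**
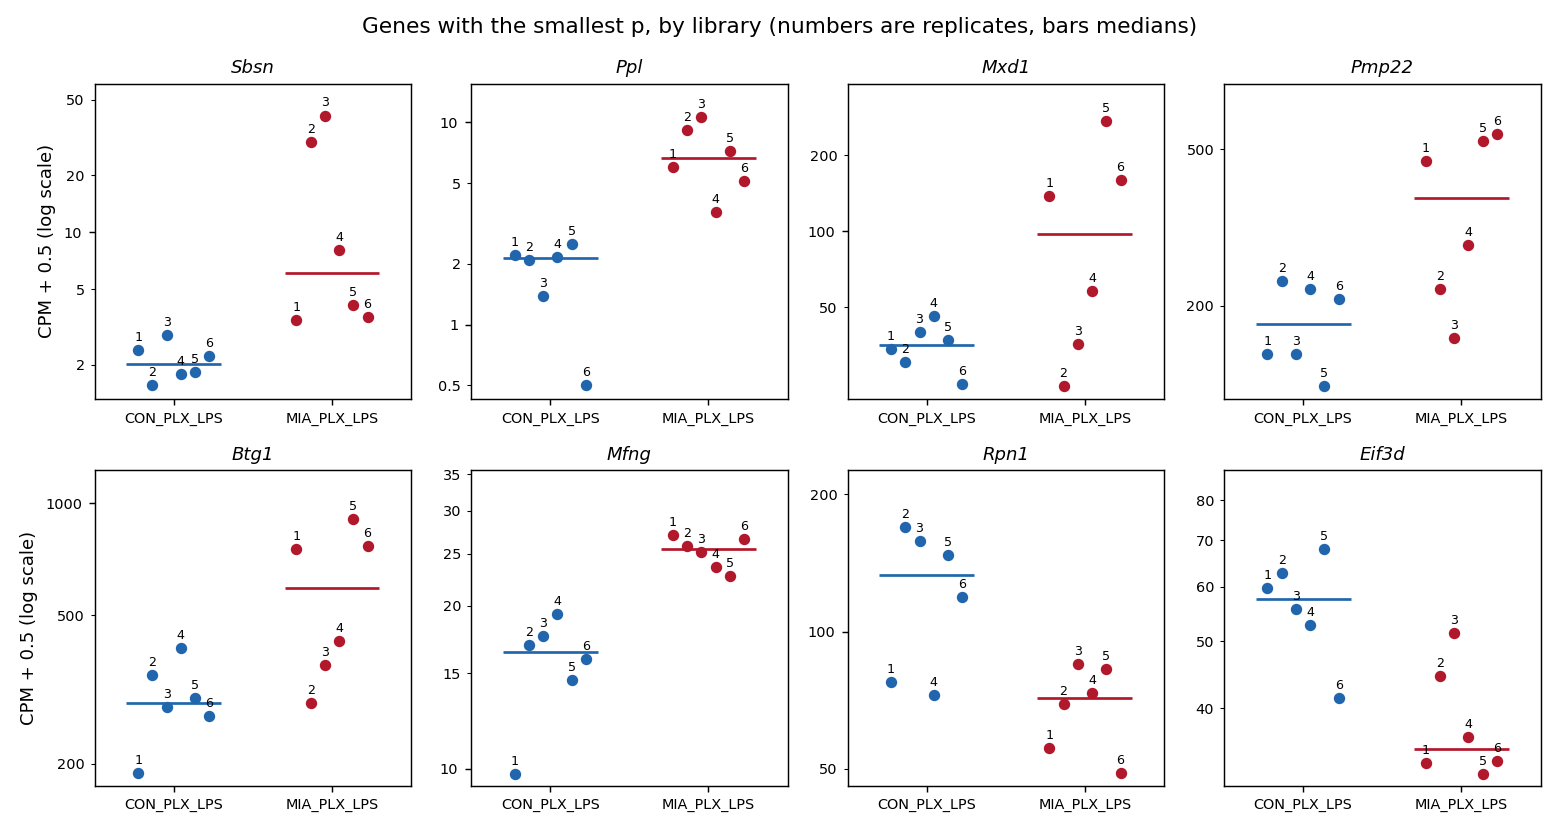
CPM plus 0.5 (log axis) of 8 genes with small p in each library, with numbers giving the replicate and bars the group median. Sbsn and Ppl peak in MIA replicates 2 and 3, Mxd1, Pmp22 and Btg1 peak in MIA replicates 1, 5 and 6, and Mfng separates the groups evenly.

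Leaving out MIA replicates 2 and 3, an alternative added after the data were seen, left 4 MIA libraries against 6 CON libraries and 13327 genes. The test then called 12 genes higher (0.09% of those tested) and 1 lower (0.0075%), and none of the 13 was called by edgeR with all libraries. DESeq2 with all libraries did call Mxd1, Pmp22 and Btg1. Mxd1 had a log2 fold change of 2.16 ± 0.285 (SE, adjusted p = 0.000126, edgeR). It lay at 57.6 to 272 CPM in the 4 MIA libraries, and at 23.9 and 35.1 CPM in the 2 left out. Pmp22 stood at 1.33 ± 0.215 (SE, adjusted p = 0.00281), with 285 to 544 CPM in the 4 and 220 and 166 CPM in the 2 left out. Btg1 stood at 1.26 ± 0.23 (SE, adjusted p = 0.00992), with 425 to 904 CPM in the 4 and 290 and 368 CPM in the 2 left out. Fdft1, the squalene synthase of the cholesterol pathway, stood at 1.33 ± 0.26 (SE, adjusted p = 0.0232). Lncpint, a noncoding RNA induced by p53, stood at 1.48 ± 0.30 (SE, adjusted p = 0.0353), and Irf1, an interferon regulatory factor, at 1.22 ± 0.26 (SE, adjusted p = 0.0496). The groups still overlapped for Lncpint (65.8 to 301 CPM in the 4 against 33.7 to 71.5 CPM in CON libraries) and Irf1 (120 to 475 CPM against 71.1 to 172 CPM). Eif3d stood at -0.75 ± 0.15 (SE, adjusted p = 0.0265). It ran from 40.9 to 67.6 CPM in CON libraries and from 31.6 to 35.9 CPM in the 4, with 44.1 and 50.9 CPM in the 2 left out. For each gene named here but Irf1, the 2 left out were the MIA libraries nearest the CON side. Leaving them out thus widens these differences by itself, and the adjusted p-values are not those of a test fixed in advance. The other 6 called genes have no descriptive name. An unadjusted p under 0.05 was reached by 822 genes higher (6.17%) and 809 lower (6.07%). Genes without overlap also became more common, 143 higher (1.07%) and 116 lower (0.87%). Groups of fewer libraries separate more easily by chance, and how much of this rise group size accounts for was not tested.

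LPS-responsive genes were read as mean levels after LPS. The genes were those that responded in the arm without PLX, in libraries that are not compared here. The 787 induced genes (adjusted p under 0.05 and a log2 fold change over 1 in both prenatal groups) averaged 5.18 log2 CPM in MIA libraries, with a lowest library of 4.84, a median of 5.22 and a highest of 5.32. In CON libraries they averaged 5.19, with 4.83, 5.18 and 5.59 as lowest, median and highest. The means differed by -0.0092 (exact permutation test over the 12 libraries, two-sided, p = 0.9632, the smallest possible being 0.00216). The 547 lowered genes averaged 3.04 in MIA libraries and 3.03 in CON libraries, a difference of 0.0179 (exact permutation p = 0.9177). With saline and PLX the same induced genes ranged from 2.98 to 3.12 in all 7 libraries, and the lowered genes from 4.89 to 5.01. Every compared library thus lay far from the saline levels on both scores, in MIA as in CON. Without MIA replicates 2 and 3 the differences were 0.0714 (exact permutation p = 0.6143) and -0.0618 (p = 0.7952).

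**Figure D3:**
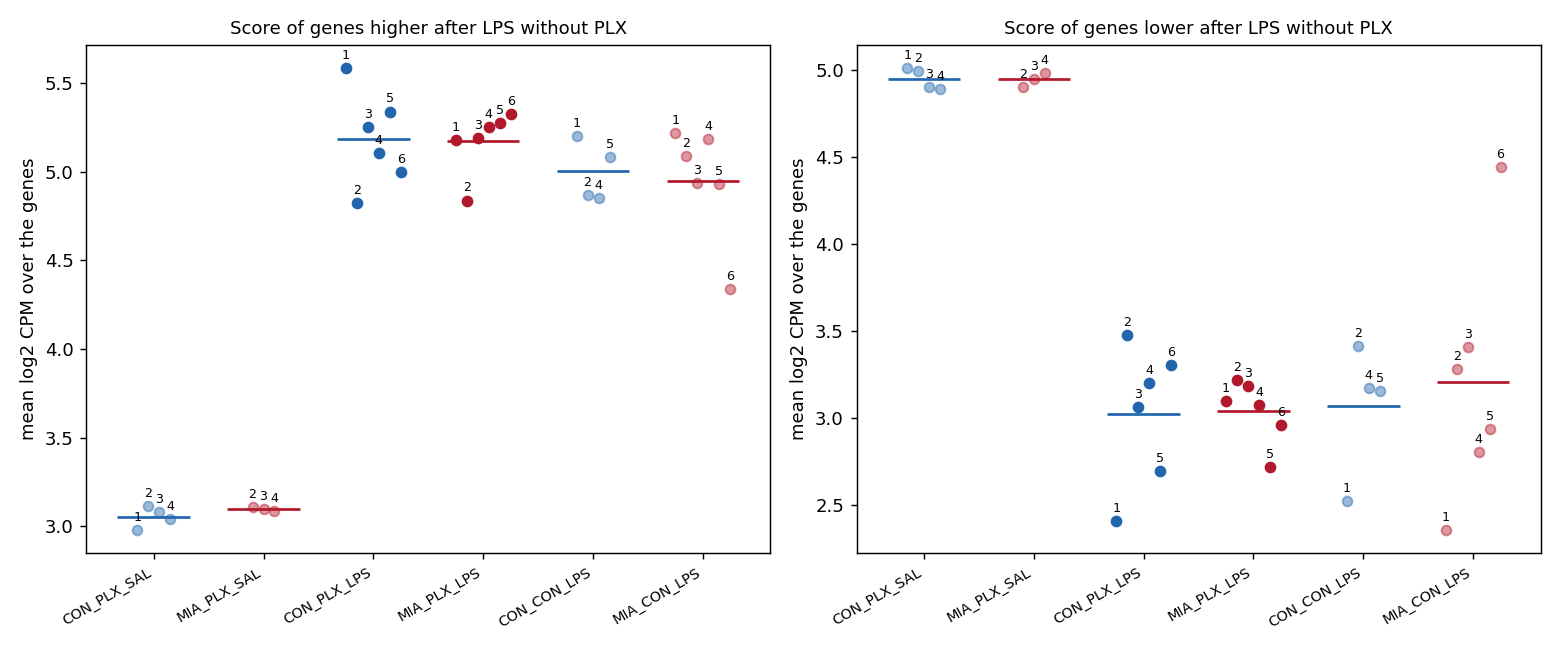
Mean log2 CPM per library over 787 genes higher and 547 genes lower after LPS in the arm without PLX, with numbers giving the replicate and bars the group mean. The 2 compared groups overlap on both scores, with CON libraries spread more widely (4.83 to 5.59 and 2.41 to 3.48) than MIA libraries (4.84 to 5.32 and 2.72 to 3.22), and the saline libraries lie apart from both.

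Of 38 gene lists, none had a member called by edgeR in either direction with all 12 libraries, while DESeq2 called Btg1 of the immediate early list higher. The receptors and adaptors that sense LPS had a median log2 fold change of 0.04 over 26 tested members, beside -0.02 over all genes tested. Tlr4 ran from 51.2 to 151 CPM in MIA libraries and from 39.4 to 134 CPM in CON libraries (log2 fold change 0.04 ± 0.33 SE). Cd14 spread from 179 to 1652 CPM (median 1080) in MIA libraries and from 379 to 797.5 CPM (median 564) in CON libraries (0.75 ± 0.35 SE, adjusted p = 0.541). The median of 13 NF-kB subunits and inhibitors was 0.36, with 8 members above 0. Only 1 had an unadjusted p under 0.05, in the higher direction, beside 4.4% of all genes. The median was 0.15 without MIA replicate 1 and 0.21 without MIA replicate 5. With MIA replicates 2 and 3 left out it was 0.585, with 6 members at an unadjusted p under 0.05, all higher, beside 6.17% of all genes. MIA replicate 2 had the lowest mean of this list among the 12 libraries, at 4.97 log2 CPM, so leaving it out raises the MIA mean. With all libraries the 1 gene was Nfkbia, which encodes the inhibitor that NF-kB induces against itself (0.73 ± 0.32 SE, adjusted p = 0.513).

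Cytokines and chemokines scattered in both directions. Among 21 inflammatory cytokines and mediators the median was 0.48. At an unadjusted p under 0.05, 2 members were higher and 3 lower, beside 4.4% and 4.49% of all genes. Leaving out MIA replicates 2 and 3 gave a median of 0.763, with 8 higher and 1 lower at that threshold, beside 6.17% and 6.07% of all genes. MIA replicate 2 had the lowest mean of this list among the 12 libraries, at 3.10 log2 CPM. Tnf, the cytokine released early after LPS, ran from 41.6 to 2007 CPM (median 1250) in MIA libraries and from 200.2 to 738 CPM (median 577.5) in CON libraries, a log2 fold change of 1.04 ± 0.60 (SE, adjusted p = 0.609). Il1b ran from 8.68 to 1890 CPM and from 184 to 940.5 CPM (1.23 ± 0.94 SE, adjusted p = 0.713). Gdf15, a stress cytokine, stood at 2.57 ± 0.89 (SE, adjusted p = 0.474), with 35.2 and 12.3 CPM in MIA replicates 5 and 6 and no more than 3.97 CPM elsewhere, and at 1.01 without MIA replicate 5. Csf1, a ligand of CSF1R, stood at 1.16 ± 0.53 (SE, adjusted p = 0.525), and Il1rn, the interleukin 1 receptor antagonist, at -2.09 ± 0.94 (SE, adjusted p = 0.519). The Il1rn value rests on CON replicate 1, at 511 CPM against no more than 47.6 CPM in any other library. The 15 chemokines had a median of -0.10, with Ccl2 at -0.59 ± 0.65 (SE), Cxcl10 at -1.08 ± 0.61 (SE) and Ccl12 at -2.14 ± 0.81 (SE). Their median turned to 0.09 without CON replicate 1 and to 0.02 without MIA replicate 4, and was -0.50 without MIA replicate 6. The Ccl12 value rests on CON replicate 2, at 1690 CPM, and was -0.75 without it, and that of Cxcl10 was -0.35 without CON replicate 1.

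Interferon-stimulated genes were mostly a little lower in the MIA mean. Of 42 members, 35 had a log2 fold change below 0 and 7 above, where 47.4% of all genes tested lay above 0, and the median was -0.24. It was -0.11 without CON replicate 2 and -0.15 without MIA replicate 1. A single member, Ifit1, which blocks translation of foreign RNA, had an unadjusted p under 0.05 (-1.09 ± 0.47 SE, adjusted p = 0.5015), beside 4.49% of all genes lower. It ran from 3.32 to 20.1 CPM in MIA libraries and from 12.02 to 55.9 CPM in CON libraries. With saline and PLX the median of the list was 0.11. The 19 genes of MHC class I and antigen processing had a median of -0.18, and 9 MHC class II genes one of 0.00. The class I median was -0.05 without CON replicate 1 or MIA replicate 2.

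Saa3, Lcn2, Msr1 and Marco, acute-phase and scavenger genes, did not exceed 11.7 CPM in any saline library with PLX and varied widely here. Saa3, serum amyloid A3, ran from 73.6 to 329 CPM in MIA libraries and from 118 to 1136 CPM in CON libraries (-1.003 ± 0.62 SE, adjusted p = 0.645). Lcn2, which binds bacterial iron carriers, ran from 36.4 to 172 CPM and from 27.3 to 629 CPM (-0.98 ± 0.67 SE, adjusted p = 0.683). The scavenger receptor Msr1 had medians of 515.5 CPM in MIA and 933 CPM in CON libraries (-0.88 ± 0.31 SE, adjusted p = 0.474). Marco, another scavenger receptor, stood at -2.48 ± 0.97 (SE), with 599 CPM in CON replicate 1 and at most 72.6 CPM in the other 11. The highest library of Saa3, Lcn2, Marco and Il1rn was CON replicate 1 in each case, and without it their values were -0.45, -0.33, -0.44 and 0.12.

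Markers of the resting state did not differ beyond their error. The median of 20 homeostatic genes was 0.10, with 13 above 0. Only 1 had an unadjusted p under 0.05, in the higher direction, beside 4.4% of all genes. The median ran from 0.01 to 0.22 with single libraries left out, the extremes being without CON replicates 1 and 2. P2ry12, the purine receptor used in the sort, ran from 277 to 382 CPM in MIA libraries and from 154 to 381 CPM in CON libraries (0.29 ± 0.29 SE). With saline and PLX the 7 libraries held 2317 to 2860 CPM. Tmem119 stood at -0.31 ± 0.38 (SE), Cx3cr1, the fractalkine receptor, at -0.52 ± 0.54 (SE), Csf1r at -0.07 ± 0.13 (SE), Itgam, which encodes CD11b, at -0.22 ± 0.21 (SE) and Ptprc, which encodes CD45, at 0.13 ± 0.16 (SE). Their adjusted p ran from 0.779 to 0.908. Among 20 disease-associated microglia genes, 4 had an unadjusted p under 0.05 in the higher direction, beside 4.4% of all genes, and none in the lower, with a median of 0.08 that turned negative without CON replicate 4 (-0.05), MIA replicate 4 (-0.02) or MIA replicate 6 (-0.04). Lgals3, a galectin of reactive phagocytes, stood at 1.41 ± 0.50 (SE, adjusted p = 0.474), from 4.06 to 15.4 CPM in MIA libraries and from 1.52 to 4.69 CPM in CON libraries.

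Immediate early and dissociation stress genes had the highest median of the 38 lists, 0.68. Of 30 members, 28 lay above 0, and 4 had an unadjusted p under 0.05, all higher, beside 4.4% of all genes. The 4 were Btg1, Btg2, Klf6 and Maff, at 0.97, 0.85, 0.46 and 0.88, of which the last 2 encode transcription factors. Fos, named after its values were seen, ran from 36.4 CPM in MIA replicate 2 to 1056 CPM in MIA replicate 6, and from 156 to 674.5 CPM in CON libraries (0.70 ± 0.59 SE, adjusted p = 0.743). The median of the same list between MIA and CON with saline and PLX was 0.65, so the direction of the group means was the same without LPS. Single saline libraries were less uniform. The list averaged 7.30 log2 CPM in MIA_PLX_SAL replicate 2. Replicates 3 and 4 stood at 6.41 and 6.39, within the CON_PLX_SAL range of 5.81 to 6.44. Genes of this list also respond to cell isolation, and the part of isolation in these values was not tested. Without MIA replicates 2 and 3 the median was 1.01. At an unadjusted p under 0.05, 14 members were higher, beside 6.17% of all genes, and 1 of them, Btg1, was called. MIA replicate 2 had the lowest mean of this list among the 12 libraries, at 4.76 log2 CPM. Of 17 glucocorticoid-responsive genes, 13 lay above 0, with a median of 0.29. Cdkn1a, the cell cycle inhibitor p21, stood at 0.90 ± 0.39 (SE, adjusted p = 0.501) and Sgk1, a kinase, at 0.57 ± 0.25 (SE, adjusted p = 0.503).

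Genes of the unfolded protein and integrated stress response lay the other way. Their median was -0.61 over 21 members, 15 lay below 0, and 5 had an unadjusted p under 0.05, all lower, beside 4.49% of all genes. Dnajc3, a chaperone partner of the endoplasmic reticulum, ran from 132 to 189 CPM in MIA libraries and from 147 to 309 CPM in CON libraries (-0.65 ± 0.22 SE, adjusted p = 0.465). Hsp90b1, the chaperone GRP94, had medians of 1120 CPM and 1781 CPM (-0.69 ± 0.30 SE, adjusted p = 0.508), and Creld2, a secreted target of the same response, medians of 13.5 CPM and 26.3 CPM (-1.12 ± 0.51 SE). In each of these 3 genes CON replicates 2, 3 and 5 were the highest libraries of the 12, while CON replicates 1 and 4 lay within or next to the MIA range. With saline and PLX the median of the list was 0.11. The median was -0.33 without CON replicate 2, -0.39 without MIA replicate 4, and -0.28, -0.30 and -0.32 with the strict filter, by DESeq2 and with no filter. Without MIA replicates 2 and 3 it was -0.645, with 7 members at an unadjusted p under 0.05, all lower, beside 6.07% of all genes. Rpn1 and Nomo1, named above, work in the same organelle.

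No gene of the metabolic and replication lists was called with all libraries. The median of 20 glycolysis genes was -0.23, with 4 at an unadjusted p under 0.05, all lower, beside 4.49% of all genes. Among the 4 were Hif1a, a hypoxia factor that induces glycolysis genes (-0.63 ± 0.28 SE, adjusted p = 0.513, and -0.10 without CON replicate 1), Pfkl (-0.48) and Pgam1 (-0.44). The 17 cell cycle genes had a median of -0.32. At an unadjusted p under 0.05, 3 were lower and 1 higher, beside 4.49% and 4.4% of all genes. The 3 were subunits of the replication helicase, Mcm2 (-1.35), Mcm3 (-0.65) and Mcm6 (-0.68). Without CON replicate 2, Mcm2 stood at -0.63 and Mcm3 at -0.39, and the list's median was -0.21. Mcm3 ran from 15.5 to 23.6 CPM in MIA libraries and from 22.7 to 52.5 CPM in CON libraries, the highest being CON replicate 2. The 46 cytosolic ribosomal protein genes had a median of -0.05 and 32 nuclear genes of oxidative phosphorylation one of -0.11 (-0.03 without MIA replicate 2), and the ribosomal median turned to 0.113 without MIA replicates 2 and 3.

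**Figure D4:**
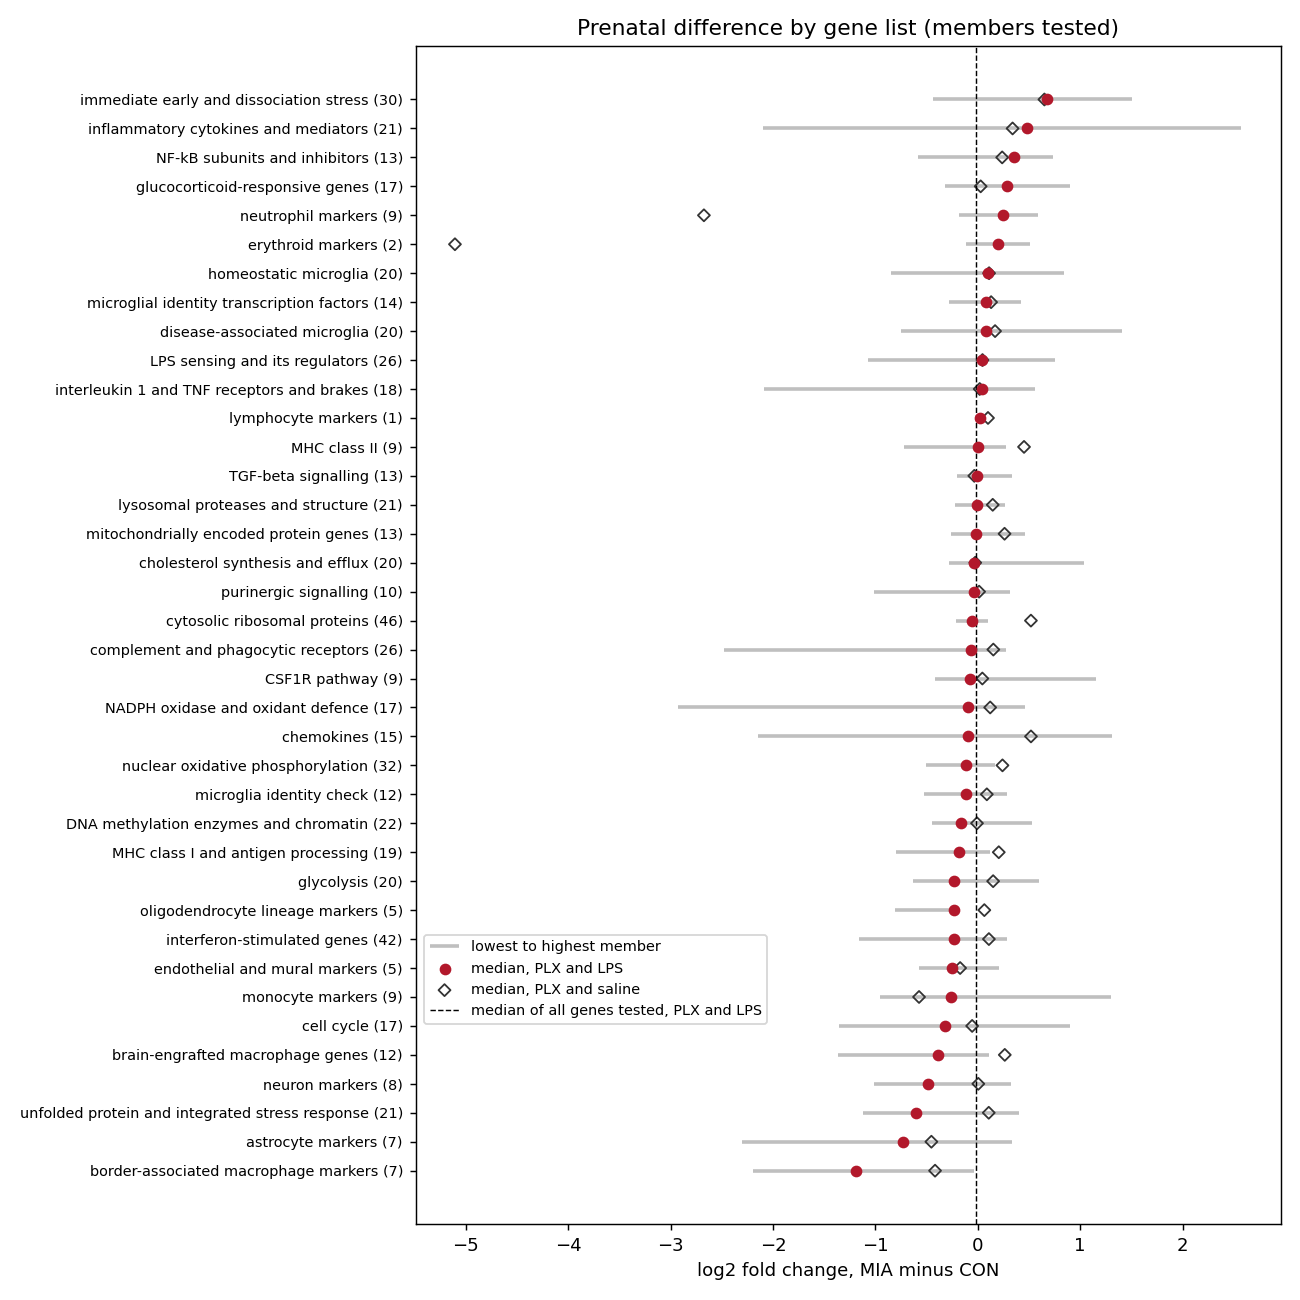
Log2 fold change (MIA minus CON) of 38 gene lists, with red points for the median after LPS with PLX, grey lines from the lowest to the highest member, open diamonds for the median with saline and PLX, and a dashed line at -0.02 for the median of all genes tested. Immediate early genes lie highest at 0.68 and border-associated macrophage markers lowest at -1.19.

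Markers of other brain and blood cells were also read. Summed border-associated macrophage markers ran from 450.8 to 792.1 CPM in MIA libraries and from 299.6 to 927.9 CPM in CON libraries. All 7 tested members lay below 0, with a median of -1.19 and 1 at an unadjusted p under 0.05, beside 4.49% of all genes lower. The median was -0.71 without CON replicate 6. Mrc1, the mannose receptor of these cells, stood at -0.77 ± 0.55 (SE), and at -0.30 without CON replicate 2. Astrocyte markers summed to 132.6 to 205.6 CPM and 189.2 to 349.3 CPM, with a median of -0.73 over 7 tested members. That median was -1.34 without MIA replicate 5, -1.13 without MIA replicate 3 and -0.19 with only the 12 compared libraries fitted. Slc1a2, the glutamate transporter of astrocytes, stood at -1.44 ± 0.52 (SE, adjusted p = 0.476), with medians of 48.0 CPM in MIA and 122 CPM in CON libraries. Monocyte sums ran from 168 to 612.4 CPM and from 112.4 to 697 CPM, and neutrophil sums from 304.9 to 656.2 CPM and from 169.1 to 594.8 CPM. Lymphocyte markers stayed at 2.07 to 10.8 CPM and 3.84 to 7.15 CPM, and 10 of 17, among them Cd3e and Trbc1, had no count in any of the 12. The part of these cells in the values above was not tested, and in sorted bulk RNA fewer cells of a type and less RNA per cell cannot be told apart.

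Libraries within each group differed widely, and the same few libraries recurred. In MIA replicates 1, 5 and 6 Tnf stood at 1875, 2007 and 1876 CPM, against 626 CPM in replicate 3, 352 CPM in replicate 4 and 41.6 CPM in replicate 2. MIA replicate 2 was also the lowest of the 12 for Il1b (8.68 CPM), Fos (36.4 CPM), Cxcl10 (14.9 CPM) and Saa3 (73.6 CPM). CON replicate 1 was the highest for Slc7a11, the cystine importer, at 1572 CPM against no more than 119 CPM in the other 11, and had the lowest P2ry12 (154 CPM). CON replicate 2 held 2.91 CPM of Zbtb16, a transcription factor induced by glucocorticoids and named after its values were seen, where the other 11 libraries held 60.6 to 196 CPM. The first principal component, 21.5% of the variance, set MIA replicate 5 apart, and the second, 15.8%, CON replicate 1. The median SD of log2 CPM over genes was 0.481 in MIA and 0.437 in CON libraries, and 0.344 and 0.337 among genes at a mean of at least 4 log2 CPM.

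**Figure D5:**
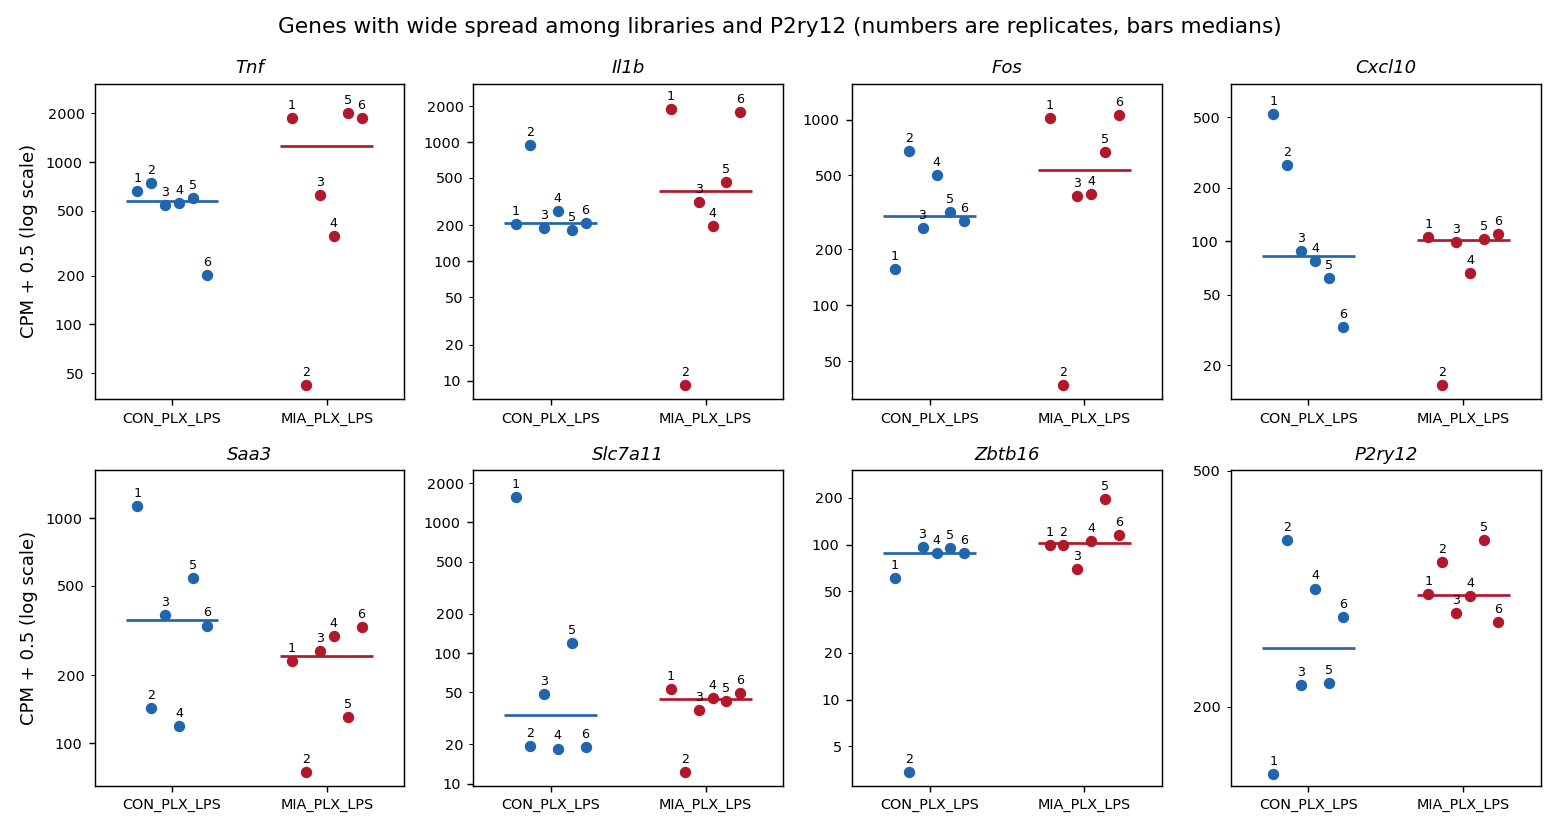
CPM plus 0.5 (log axis) of 8 genes in each library, with numbers giving the replicate and bars the group median. MIA replicates 1, 5 and 6 lie highest for Tnf, MIA replicate 2 lowest for Tnf, Il1b, Fos, Cxcl10 and Saa3, CON replicate 1 highest for Saa3 and Slc7a11, and CON replicate 2 alone is low for Zbtb16.

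Whether the prenatal difference after LPS depended on PLX was tested by setting it against the same difference without PLX, which shares no library with it. Of 13420 genes, edgeR called 5 (0.0373%), 4 with a higher and 1 with a lower value in the PLX arm. Limma voom called 0 and DESeq2 13. With no filter on low counts edgeR called 2, AC122252.2 and Gpr37l1, so the calls of Ppl, Dcbld2 and Gm45220 were lost. Ppl had a log2 fold change of 2.25 with PLX and -1.004 without it, a difference of 3.25 ± 0.61 (SE, adjusted p = 0.0174, edgeR). Dcbld2, a membrane receptor, stood at 0.56 with PLX and -0.77 without it, a difference of 1.34 ± 0.27 (SE, adjusted p = 0.0461). Gpr37l1, a receptor of astrocytes and their relatives, stood at -2.33 and 3.36, a difference of -5.69 ± 1.05 (SE, adjusted p = 0.0174). It was scarce in every compared library, so that its fitted change rests on few counts, with at most 0.738 CPM in MIA and 0.687 to 2.40 CPM in CON libraries. The astrocyte markers as a list had medians in the same directions, -0.73 with PLX and 1.28 without it. The part of astrocyte RNA in the Gpr37l1 difference was not tested. The remaining called genes were AC122252.2 and Gm45220, which have no descriptive name, with differences of 2.79 ± 0.47 and 2.43 ± 0.44 (SE). The count was 8 without MIA replicate 2, 9 without MIA replicate 3 or 4, and 3 without CON replicate 3. Without MIA replicates 2 and 3 together, 14 genes were called (0.105%). Of the 5 genes called with all libraries, AC122252.2, Gm45220, Dcbld2 and Gpr37l1 were still called (adjusted p from 0.000731 to 0.0358, edgeR), and Ppl was not. Mxd1, lowest among MIA libraries in the 2 left out, was also called, with a difference of 2.44 (adjusted p = 0.00345). So was Ckap2l, a mitotic spindle protein named after its values were seen, with a difference of 5.70 (adjusted p = 0.00538).

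Whether it depended on LPS was tested against the prenatal difference with saline and PLX. No gene was called (0%), and the smallest adjusted p was 0.9999 by edgeR, while 393 genes had an unadjusted p under 0.05. DESeq2 called 1 gene, Atp2a1, the muscle pump found in MIA replicates 2 and 3. Sbsn stood at 3.19 after LPS and 0.28 with saline (difference 2.91 ± 0.90 SE), and Mxd1 at 1.69 and -0.28 (difference 1.97 ± 0.62 SE). Neither difference passed (adjusted p = 0.9999 for each, edgeR), and the saline side rests on 3 MIA libraries. In their own right, the prenatal contrasts after LPS without PLX and with saline and PLX called no gene (edgeR), with 1252 and 164 genes at an unadjusted p under 0.05.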

How the data were processed

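The authors deposited estimated counts for 55487 gene identifiers and 39 libraries. Tools listed, per the submitters' processing notes, were STAR, RSEM and DESeq2, with no version or role, and the genome build is not given in the sources used here. Amplification kept no strand information and ribosomal RNA was not removed, per the labels' protocols, so overlapping and antisense genes cannot be told apart. Symbols came from GENCODE M21 (55141 identifiers matched), and 0.0132% of counts had no symbol.

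Estimated counts were rounded. The 2 libraries whose titles say exclude were left out. Group means over 37 libraries were modelled by edgeR 4.0.16 quasi-likelihood (R 4.3.3, TMM, robust dispersion, filterByExpr with minimum count 10), adjusted by Benjamini-Hochberg over 13420 genes and called under 0.05, two-sided, with no fold limit. Each SE was derived from the change and its F value. Scores are mean log2 CPM (prior count 2), compared by exact permutation. Steps were tested on simulated data. Alternatives were scaling, DESeq2 1.42.0, limma 3.58.1 voom with a quality weight per library, filters, thinning, libraries fitted, the replicate block and leaving out libraries.

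Members, lists and tests were chosen with earlier results of these data known. The epithelium and muscle lists and the comparison without MIA replicates 2 and 3 were added after seeing the data. Named genes were, per direction, the called genes and then the next by p up to 8 at a mean of at least 4 log2 CPM (the called pair lies below that level), up to 3 members per list with the smallest p and the one with the largest, 4 genes per sign of each difference, and a fixed set of microglial and inflammatory genes, without predicted genes. The motif was chosen after the sequence was known. A result for 1 gene is not reported here.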

Additional observations from a re-analysis of the deposited data

Results flagged for a closer look

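Single libraries far from the rest of their group were found in 32 of 296 checks of named genes, scores and library measures. For 1 check fixed in advance chance gives about 1 in 20. That rate does not hold for this set, since some genes were named after their values were seen and the checks share libraries. Values here are log2 CPM. MIA replicate 2 was the low library for Cxcl10 at 3.96 (others 6.05 to 6.79), Il1rn at 2.14, Ccl5, a chemokine, at 4.47, Fos at 5.21 (others 8.59 to 10), Pgam1 at 6.06, Slc7a11 at 3.63 and F13a1, a macrophage transglutaminase, at 1.22. The calgranulins S100a8 and S100a9 stood at -0.0788 and -0.737 there, against 3.43 to 5.12 and 3.98 to 5.3 in the other 5. The same library was low for the LPS-induced score at 4.84, for border-associated macrophage markers at 1.75 and for neutrophil markers at 1.5. MIA replicate 5 was high for Il17ra at 8.92 and for Runx1, a transcription factor of blood lineages, at 10.3. MIA replicate 6 was low for Nomo1 at 4.31 and for cholesterol genes at 4, and MIA replicate 4 for homeostatic genes at 8.14.

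CON replicate 1 was low for Tlr4 at 5.32 (others 6.51 to 7.07) and for identity transcription factors at 6.54. It was high for Il1rn at 9, Ccl5 at 8.96, Hif1a at 8.65 and Traf1, an adaptor of TNF receptors, at 5.23 (others 1.49 to 2.4). CON replicate 2 was high for Il1b at 9.88, Mcm3 at 5.73, Olfml3, a secreted microglial protein, at 9.58 and Ndufb9 at 5.48, and low for Zbtb16 at 1.81 (others 5.94 to 6.6). CON replicate 6 was low for Tnf at 7.65 (others 9.1 to 9.53) and Maged2 at 0.705, and high for Setd7 at 5.77, and CON replicate 5 was high for cholesterol genes at 4.43.

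The prenatal difference after LPS differed between the arms with and without PLX for AC122252.2 (adjusted p = 0.0152, edgeR), Gm45220 (0.0174), Ppl (0.0174), Gpr37l1 (0.0174) and Dcbld2 (0.0461).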

How the results depend on the processing

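The call of 2 genes in the main comparison was fragile. With no filter on low counts it became 5, namely Sbsn, Ppl, Hspb1 and the muscle genes Acta1 and Tcap. In MIA replicates 2 and 3 Acta1 stood at 48.6 and 71.6 CPM and Tcap at 7.29 and 7.22 CPM, and neither passed 0.768 CPM in any other of the 12. The count was 0 with a strict filter, with only the 12 compared libraries fitted, with counts thinned to the smallest total, and with the replicate block over 37 or over 12 libraries. It was 1 without MIA replicate 5 and CON replicate 1, 0 without MIA replicate 2 and CON replicate 2, 13 without MIA replicates 2 and 3, and 19 by DESeq2, and it ran from 0 to 5 when single libraries were left out. The muscle genes Atp2a1 and Tnni2 were among the 19. The strict and thinned fits tested fewer genes or held fewer counts, and the cause of the other shifts was not tested. The 5 genes that differed between the arms with and without PLX became 9 on library totals only, 2 with no filter, 3 with a strict filter, 2 with the libraries titled exclude added, 8 without MIA_CON_LPS replicate 6, 3 after thinning, 4 with the replicate block, 14 without MIA replicates 2 and 3, 13 by DESeq2 and 0 by voom, and ran from 3 to 9 with single libraries left out. The count of 0 against saline became 1 by DESeq2. The difference in the induced score of -0.0092 was 0.0104 with DESeq2 size factors, 0.0031 on library totals and 0.0058 after thinning, and ran from -0.081 to 0.071 with single libraries left out. That of the lowered score, 0.0179, was -0.0074 with a prior count of 0.5 and ran from -0.1049 to 0.1079. The mitochondrial ribosomal RNA share differed by -1.3344 to 0.671 percentage points and the share of the top 50 genes by -1.9863 to 0.65233. Of 2901 values of 102 named genes under alternatives, 2779 kept direction and side of the threshold, 19 lost the call, 23 gained it and 80 changed sign without a call in either. Between the 2 compared groups replicate numbers did not pair the libraries: same-numbered pairs correlated from -0.17 to 0.21, and 1 of 6 MIA libraries correlated best with its own number. The homeostatic score of replicate 1 was 7.36 in CON_PLX_LPS, 7.52 in CON_CON_LPS and 7.63 in MIA_CON_LPS, but 8.67 in MIA_PLX_LPS. For replicate 2 it was 9.15, 9.03, 9.10 and 8.57 in the same order. Outside MIA_PLX_LPS, replicates 4 and 5 were not set apart, at 8.19 to 8.67 and 8.22 to 8.63. What a shared number marks is not stated in the labels and was not tested. Depth of 1510006 to 5746240 counts limits genes at a few CPM, such as Ppl and Gpr37l1.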
